A study of Rattus norvegicus with 12 samples.

Results

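The unnamed transcripts beside annotated genes were rows of the assembled transcriptome of the rat L5 dorsal root ganglion (DRG) that carried no gene symbol and whose locus lay within 10 kb of a row with a symbol, or coincided with it. They were chosen by their measured level. A row entered when its locus was at least 200 bp long and its FPKM (sequenced fragments scaled by transcript length and by the depth of the library) was at least 1 in either group of its table. After spinal nerve ligation (SNL), 2053 of 4552 unnamed rows of that length and level met the distance limit, and in the comparison of the shRNA vectors 2143 of 4667 did. The first table held 28578 rows in all and the second 28745.

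SNL is a model of neuropathic pain in which a lumbar spinal nerve is tied. The SNL group was the L5 DRG of the ligated side and the Control group the contralateral L5 DRG, both 14 days after the operation. In the Neat1 shRNA + SNL group and the control shRNA + SNL group, the rats had received a serotype 6 adeno-associated virus (AAV) vector 7 days before SNL, and these ganglia too were collected 14 days after ligation. All groups were Sprague Dawley rats, male by the labels, whereas the methods name male and female animals of 5 to 6 weeks, and each group had 3 libraries. The vector served to reach sensory neurons, so glia and immune cells of these ganglia need not carry the hairpin. In bulk ganglia, fewer cells of a type and less RNA per cell cannot be told apart.

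An assembler joins reads into transcripts without needing an annotation, so a transcript with no symbol can be a long noncoding RNA, an unannotated end or exon of the neighbouring gene, the primary transcript of a microRNA (miRNA), or a protein-coding gene that the annotation lacked. A noncoding RNA that starts close to a protein-coding gene on the other strand is called divergent, and one that overlaps it an antisense RNA. The tables gave no strand, so none of these classes was assigned. miRNAs are cut from such long primary transcripts, and the mature strand pairs with messenger RNAs mainly through its seed, the bases 2 to 8.

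Some unnamed rows lay beside miRNA genes, and the sequences shown here are those of the mature miRNAs next to the rows described, so that rows beside miRNAs with a shared seed can be read together. This group was formed after its values were seen. Of 42 miRNA symbols beside unnamed rows, 41 had an entry in RefSeq (GRCr8). The seed is in capitals. The mature strands of let-7g, let-7d and miR-98, given first, have the same seed.
rno-let-7g-5p: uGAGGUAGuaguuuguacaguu
rno-let-7d-5p: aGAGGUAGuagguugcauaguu
rno-miR-98-5p: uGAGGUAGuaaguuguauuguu
rno-miR-9a-5p: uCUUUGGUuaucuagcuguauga
rno-miR-138-5p: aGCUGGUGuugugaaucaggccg
rno-miR-137-3p: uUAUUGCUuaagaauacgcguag
rno-miR-129-5p: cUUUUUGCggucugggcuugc
rno-miR-142-5p: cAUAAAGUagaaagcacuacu
rno-miR-142-3p: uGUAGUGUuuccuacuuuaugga
rno-miR-205: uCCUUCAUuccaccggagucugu

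After SNL, 44 unnamed rows lay beside 28 rows with a miRNA symbol, and 8 of them were more than 1.5-fold higher in SNL than in Control and 14 more than 1.5-fold lower. Among all rows of the same length and level in that table, 20.6% were higher and 19.0% lower by this measure. Most of the 8 and most of the 14 were under 1 FPKM in the lower group. Those rows entered only through the group where they were high, so the counts support no direction. The highest in level of the 44 was the row in the locus of Mir9-3 on chromosome 1 (142130561 to 142207427), with 124 FPKM in SNL and 96.6 FPKM in Control. miR-9 is a miRNA of the nervous system. The difference of this row was within 1.5-fold, at a log2 ratio of 0.36. The 3 rows beside Mirlet7g on chromosome 8 had 39.2, 22.4 and 5.05 FPKM in SNL, against 29.4, 14.0 and 3.38 FPKM in Control, so that each was higher in SNL with log2 ratios between 0.42 and 0.69. The row beside Mir98, of the same seed, had 21.4 FPKM in SNL and 23.7 FPKM in Control, and the row beside Mirlet7d 0.666 FPKM in SNL and 1.03 FPKM in Control. Beside miRNAs of this seed, 1 row was thus more than 1.5-fold higher in SNL and 1 more than 1.5-fold lower. The lower one, beside Mirlet7d, reached 1 FPKM only in Control, which fixed its direction.

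Beside Mir142, whose miRNA is a marker of blood cells, the 2 unnamed rows differed in direction. The row 215 bp away (chromosome 10, 75051764 to 75052681) had 3.13 FPKM in SNL and 0.321 FPKM in Control, and the row 6741 bp away had 0.188 FPKM in SNL and 2.04 FPKM in Control. Each reached 1 FPKM only in the group where it was high, so the level rule fixed both directions. Macrophage and T cell markers were also higher in SNL, and their part in the nearer row was not tested. The row beside Mir205 had 2.9998 FPKM in SNL and 0.297 FPKM in Control. Other rows were lower in SNL. Those beside Mir137, whose miRNA is known from the brain, had 1.41 and 0.602 FPKM in SNL, against 3.27 and 2.46 FPKM in Control. The row beside Mir129-2 had 0.0339 FPKM in SNL and 1.06 FPKM in Control, and that beside Mir6333 18.6 FPKM in SNL and 41.8 FPKM in Control. The rows beside Mir205 and Mir129-2 and the lower row beside Mir137 likewise reached 1 FPKM only in the group where they were high. Beside Mir138-1 the values were 12.4 FPKM in SNL and 16.6 FPKM in Control, within 1.5-fold. All 4 rows in the locus of Mir1188, Mir341 and Mir370 on chromosome 6 were lower in SNL, at log2 ratios of -0.74 to -1.03. As rows of 1 locus they are not independent, and some of them reached 1 FPKM in Control only. Of the 28 rows with a miRNA symbol, 9 were listed at 0 in both groups, in libraries made from polyadenylated RNA.

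**Figure D1:**
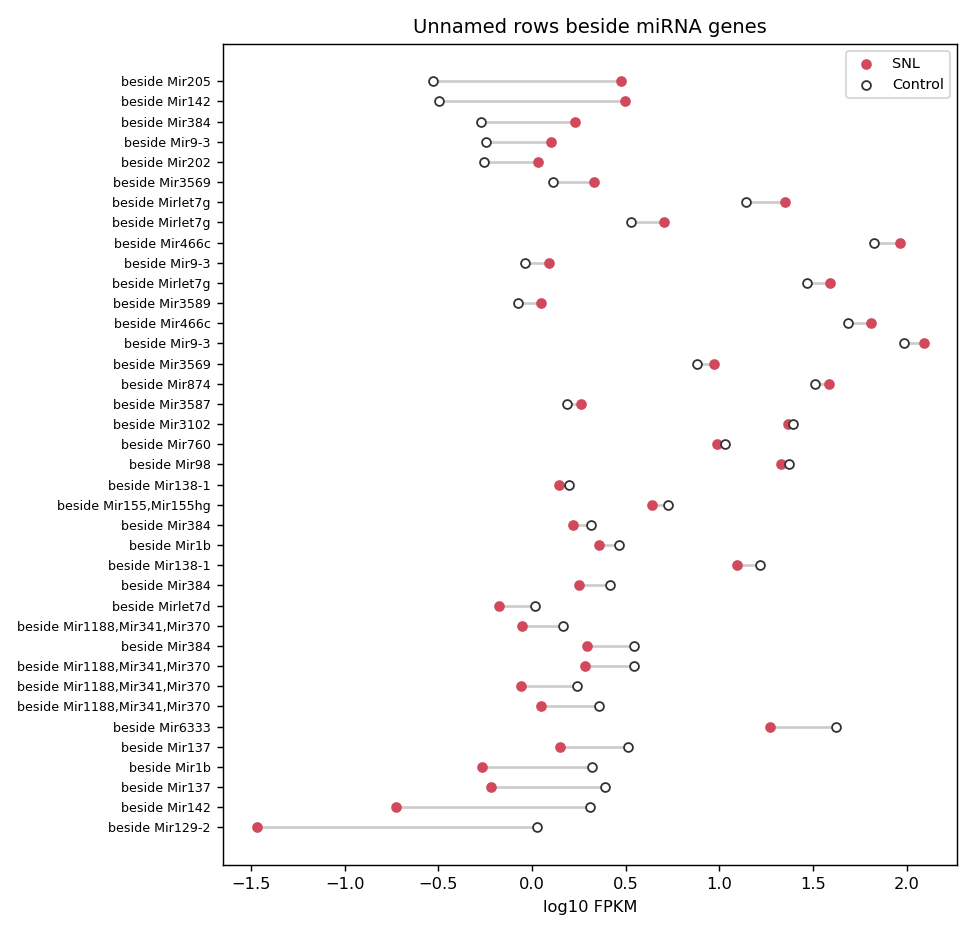
Log10 of FPKM in SNL (filled) and Control (open) of the 38 unnamed rows whose nearest named row carries only miRNA symbols or a miRNA host symbol, 1 line per row, ordered by the ratio of SNL to Control. The rows beside Mir205 and Mir142 (215 bp away) stand at the top and those beside Mir129-2 and Mir142 (6741 bp away) at the bottom, while the row of Mir9-3 is the highest in level.

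In the shRNA comparison, 41 unnamed rows lay beside miRNA rows and 5 were more than 1.5-fold higher and 4 more than 1.5-fold lower in the group labelled Neat1 shRNA. The background in this table was 3.10% higher and 5.69% lower among all rows of the same length and level. Most of the 5 and of the 4 were under 1 FPKM in the lower group, so the level rule fixed their direction. The row beside Mir205 had 3.19 FPKM in the group labelled Neat1 shRNA and 3.62 FPKM with control shRNA, and that beside Mir6333 21.6 FPKM in the group labelled Neat1 shRNA and 18.0 FPKM with control shRNA. The row nearest Mirlet7g had 46.9 FPKM in the group labelled Neat1 shRNA and 50.2 FPKM with control shRNA. Each of these differences was within 1.5-fold. In the locus of Mir1188 and Mir341, 4 unnamed rows had 1.21, 1.48, 1.36 and 1.18 FPKM in the group labelled Neat1 shRNA, against 0.806, 0.670, 0.842 and 0.657 FPKM with control shRNA. Each of the 4 was higher with Neat1 shRNA by label, 3 of them by more than 1.5-fold. All 4 had 1 locus and were under 1 FPKM with control shRNA. They entered only through the group where they were high, which fixed their direction.

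Before further results, 3 facts of the tables bear on them. The libraries of a group were merged into 1 FPKM per row, so that no spread between animals could be computed and no difference below was tested. The row taken as Neat1 was at 374 FPKM in the group labelled Neat1 shRNA and 355 FPKM with control shRNA, so this table shows no lower Neat1 level in the group labelled Neat1 shRNA. The study also measured Neat1 by qPCR, which these pooled values do not replace. In SNL, summed FPKM of the markers was 197 for macrophages (5 of the 5 markers found over 1.5-fold higher) and 7.03 for T cells (4 of 4 higher), against 36.9 and 1.05 in Control. The sum for sensory neurons was 8958 in SNL (7 of 10 markers lower, 1 higher) and 14423 in Control, and that for fibroblasts 1528 in SNL and 635 in Control. In the shRNA comparison, T cell markers summed to 10.8 FPKM in the group labelled Neat1 shRNA and 42.8 FPKM with control shRNA, with 4 of 4 lower. The tissue label was checked with markers of sensory neurons, satellite glia and Schwann cells, of which each one found was at 1 FPKM or more in each group, while Mog, Chat and Mnx1 of the spinal cord summed to at most 0.189 FPKM in any group.

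The place of a row was read from its locus, which the assembler gives to a whole bundle of overlapping transcripts. In the SNL table, 474 of the 2053 rows (23.1%) had exactly the locus of a named row, 587 lay under 1 kb from it, 574 at 1 to 5 kb and 416 at 5 to 10 kb. The corresponding counts in the shRNA table were 507, 624, 621 and 389 of 2143, and each table held 2 rows that overlapped a named locus in part. The 2053 rows lay in 1716 loci and the 2143 in 1661, and up to 11 unnamed rows had 1 locus, so they are not independent of each other. For rows with a named row's locus, the extent of the transcript within it is unknown.

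Most of these transcripts were low. The FPKM of the higher group had a median of 2.88 in the SNL table (quartiles 1.501 and 7.48) and 2.67 in the shRNA table. The named neighbours had medians of 13.3 in both tables. Between 1 and 2 FPKM lay 37.4% of the rows of the SNL table, while 20.3% reached 10 FPKM and 24 rows reached 100 FPKM. The unnamed row exceeded its neighbour in mean FPKM in 28.3% of the pairs of the SNL table and 25.2% of those of the shRNA table. The level rule let in 345 rows that reached 1 FPKM in SNL only and 292 that did so in Control only, so these had to differ, and 1416 reached it in both groups. Of the rows of the shRNA comparison, 183 reached it in the group labelled Neat1 shRNA only, 177 with control shRNA only and 1783 in both.

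The highest level of all belonged to 1 row beside Tctex1d1 on chromosome 5 (126167817 to 126365790), which had 433226 FPKM in SNL and 213805 FPKM in Control. This was 37.8% of the summed FPKM of the whole table in SNL and 21.0% in Control. No row of the shRNA table was matched to it, and the length of the transcript within its locus of 197974 bp is unknown. After it came the row 6731 bp from Oaf on chromosome 8 (46005303 to 46007737), with 401 FPKM in SNL and 570 FPKM in Control. It had 243 FPKM in the group labelled Neat1 shRNA and 260 FPKM with control shRNA. The row 152 bp from Tfpt had 151 FPKM in SNL and 213 FPKM in Control, and the row 6102 bp from Bbs5, a component of the complex that sorts cargo to cilia, 114 FPKM in SNL and 219 FPKM in Control. Each of these 3 rows stood above its neighbour. Oaf was at 66.8 FPKM in SNL and 58.9 FPKM in Control, Tfpt at 25.3 FPKM in SNL and 23.4 FPKM in Control, and Bbs5 at 4.16 FPKM in SNL and 5.66 FPKM in Control.

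The Neat1 row (chromosome 1, 228133846 to 228137283, 3438 bp), the noncoding RNA that builds the nuclear bodies called paraspeckles, belonged to this set because it lay 8958 bp from Frmd8. It was identified from the study's list of candidate locations, and the position the study gives for the cloned transcript differs from this one, so its identity was not checked independently. It had 294 FPKM in SNL and 141 FPKM in Control, a 2.09-fold higher value in SNL. Frmd8, which encodes a partner of the iRhom proteins, had 74.6 FPKM in SNL and 41.3 FPKM in Control, so both rows were higher in SNL. Next to Neat1, an unnamed row of 14999 bp (228117504 to 228132502) had 1.98 FPKM in SNL and 1.07 FPKM in Control, and one of 824 bp 2.02 FPKM in SNL and 0.821 FPKM in Control. Lying 13739 and 12745 bp from Frmd8, they were outside the distance limit. In the shRNA comparison a row of 15630 bp there had 2.54 FPKM in the group labelled Neat1 shRNA and 1.75 FPKM with control shRNA.

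Other locations that the study lists as homologues of known long noncoding RNAs were beside transcription factor genes. At the location of Linc01135, 377 bp from Jun, which encodes an AP-1 subunit, 4 unnamed rows had 1 locus. The highest had 16.2 FPKM in SNL and 6.997 FPKM in Control. The other 3 had 2.74, 2.29 and 1.39 FPKM in SNL, against 1.14, 0.981 and 0.483 FPKM in Control. All 4 were more than 1.5-fold higher in SNL, as was Jun, with 193 FPKM in SNL and 45.5 FPKM in Control. The highest of these rows in the shRNA comparison had 13.9 FPKM in the group labelled Neat1 shRNA and 14.8 FPKM with control shRNA, and Jun 194 FPKM in both groups.

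At the location of Nr2f2-as1, 130 bp from Nr2f2, which encodes the nuclear receptor COUP-TFII, 4 rows had 14.7, 4.46, 3.55 and 2.85 FPKM in SNL, against 7.92, 2.25, 2.67 and 1.08 FPKM in Control. Another 2 unnamed rows in the locus of Nr2f2 itself had 16.02 and 6.61 FPKM in SNL, against 5.35 and 3.50 FPKM in Control. Of these 6 rows, 5 were more than 1.5-fold higher in SNL, and Nr2f2 had 50.6 FPKM in SNL and 25.1 FPKM in Control. At the location of Zeb2-as1, 91 bp from Zeb2, a zinc finger repressor, the unnamed row had 1.08 FPKM in SNL and 0.503 FPKM in Control, and Zeb2 41.9 FPKM in SNL and 19.9 FPKM in Control. The study named these candidates on the same samples, so their direction is no independent evidence. The row at Linc00643 lay 316904 bp from a named row and that at Oip5-as1 carried a symbol, so neither belonged here.

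Over all rows with a value above 0 in both groups, 486 of 2037 (23.9%, Wilson 95% interval 22.1 to 25.8) were more than 1.5-fold higher in SNL and 451 (22.1%, 20.4 to 23.99) more than 1.5-fold lower. The table as a whole had 20.6% higher and 19.0% lower, so that both shares were close to the background. Unnamed rows beyond 10 kb had 24.2% higher and 29.2% lower (27.4 to 31.0), and named rows 19.3% higher and 16.4% lower. Intervals cover counting error only, over rows that are not independent. A further 8 rows were at 0 in SNL and 8 at 0 in Control. In the shRNA table, 148 of 2141 (6.91%, 5.91 to 8.07) were more than 1.5-fold higher in the group labelled Neat1 shRNA and 174 (8.13%, 7.04 to 9.36) more than 1.5-fold lower, beside 3.10% and 5.69% of all rows.

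The shares varied with level. In the SNL table, 53.5% of the unnamed rows at 1 to 2 FPKM were past 1.5-fold in either direction, and 36.2% of those at 10 FPKM or more. Named rows of the same levels had 60.3% and 31.5%. In the shRNA comparison, 21.9% of the unnamed rows at 1 to 2 FPKM were past 1.5-fold, and 1.72% of those at 10 FPKM or more, against 21.3% and 2.44% of the named rows. At 2 to 5 FPKM, 18.5% of the unnamed rows of the shRNA comparison were past the limit, against 10.5% of the named rows. At 10 FPKM or more, unnamed rows beside genes were lower in SNL in 21.7% (18.0 to 25.96) and named rows in 16.9% (16.1 to 17.8). Of 414 unnamed rows beside genes at that level, 90 were lower in SNL and 60 higher. Unnamed rows beyond 10 kb at that level were lower in 26.7% (23.0 to 30.9) and higher in 17.9%. More lower than higher rows was thus not particular to rows beside genes.

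**Figure D2:**
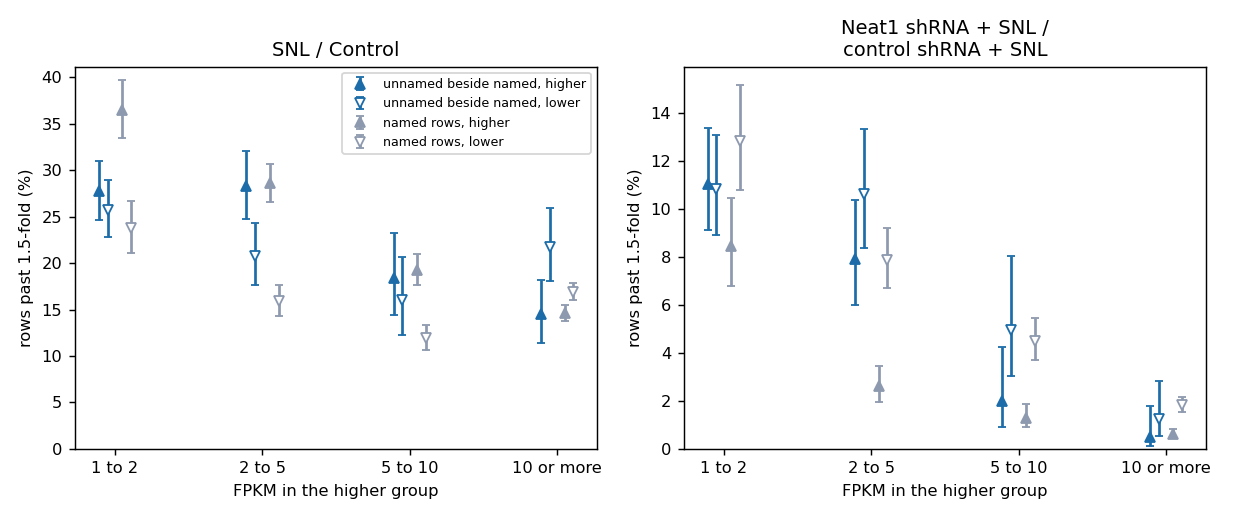
Share of rows more than 1.5-fold higher (filled) or lower (open) in the group on top of the ratio, by the FPKM of the higher group, for unnamed rows beside named rows (blue) and named rows (grey), with Wilson 95% intervals. The y axes of the panels differ. In the shRNA table the shares fall to 0.493% higher and 1.23% lower among unnamed rows at 10 FPKM or more.

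Among the 392 rows at 10 FPKM or more, with 1 row taken per locus, the lowest ratio after SNL belonged to a row whose neighbour was higher. The row 5017 bp from Dnajb5 on chromosome 5 (62884688 to 62913595) had 9.93 FPKM in SNL and 238 FPKM in Control, a log2 ratio of -4.58. Dnajb5, a member of the DnaJ co-chaperones, had 16.3 FPKM in SNL and 8.35 FPKM in Control. Another 2 unnamed rows with this same locus ran the other way, with 8.34 and 1.12 FPKM in SNL, against 0.219 and 0.0219 FPKM in Control. Transcripts of 1 locus were thus divided among 3 rows, and the direction differed between them.

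The row 3759 bp from Trmt10b, a tRNA methyltransferase gene, had 4.43 FPKM in SNL and 35.4 FPKM in Control, while Trmt10b was at 6.98 FPKM in SNL and 6.22 FPKM in Control. The row 2155 bp from Ctsd, which encodes the lysosomal protease cathepsin D, had 4.48 FPKM in SNL and 28.9 FPKM in Control, and Ctsd 308 FPKM in SNL and 387 FPKM in Control. The row 2598 bp from Arrb1, which encodes a beta-arrestin, had 3.97 FPKM in SNL and 20.9 FPKM in Control, while Arrb1 was at 62.6 FPKM in SNL and 33.9 FPKM in Control. A short row of 1018 bp, 5166 bp from Oas1i on chromosome 12 (44186379 to 44187396), had 38.1 FPKM in SNL and 169 FPKM in Control. Oas1i itself was listed at 0 in both groups. The rows beside Duox1 and Bpifb1 had 5.61 and 2.69 FPKM in SNL, against 25.5 and 12.8 FPKM in Control, beside genes under 0.2 FPKM. In the locus of Pskh1, which held 6 named rows, the unnamed row had 3.09 FPKM in SNL and 12.7 FPKM in Control.

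The highest ratio at that level belonged to a row of 482 bp, 8317 bp from Lin28a on chromosome 5 (155943834 to 155944315), with 224 FPKM in SNL and 16.1 FPKM in Control, a log2 ratio of 3.80. Lin28a, an RNA-binding regulator of let-7 processing, was near 0 in both groups, at 0.0291 FPKM in SNL and 0.0326 FPKM in Control. The row 9819 bp from Tubgcp5, a subunit of the gamma-tubulin ring complex, had 41.5 FPKM in SNL and 9.14 FPKM in Control. The row 4950 bp from the lens gene Crybb3 had 19.3 FPKM in SNL and 4.41 FPKM in Control. Rows in the locus of Tiam1, a Rac activator, and of Tfg had 34.1 and 28.7 FPKM in SNL, against 8.65 and 10.8 FPKM in Control. Tiam1 was higher in SNL too, at 10.7 FPKM in SNL and 4.60 FPKM in Control. A row 8788 bp from Sncb, the gene of beta-synuclein, had 10.2 FPKM in SNL and 3.61 FPKM in Control, and a row in the locus of Grtp1 27.97 FPKM in SNL and 9.503 FPKM in Control. Sncb and Grtp1 were within 1.5-fold.

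Each unnamed row was then set against its nearest named row. In the SNL table both rows of the pair had a ratio in 1938 pairs, of which 1121 (57.8%, 55.6 to 60.0) had the same sign. Across these pairs Pearson's r was 0.32 and Spearman's rho 0.27, a description over rows that share libraries and loci. The relation was found mainly among low rows. For unnamed rows at 1 to 2 FPKM r was 0.44, and at 2 to 5 FPKM 0.37. At 5 to 10 FPKM it was 0.09, and at 10 FPKM or more 0.06. The rho was 0.34 at 1 to 2 FPKM and 0.12 at 10 FPKM or more. Rows in the neighbour's own locus had an r of 0.47 (458 pairs), those under 1 kb away 0.43 (570 pairs), those at 1 to 5 kb 0.24 (536 pairs) and those at 5 to 10 kb 0.19 (372 pairs). The difference of log2 ratios had a median of 0.03 with quartiles at -0.58 and 0.63, and 48.7% of the pairs lay within 1.5-fold of each other. This share was 55.4% under 1 kb (51.3 to 59.5) and 41.4% at 5 to 10 kb (36.5 to 46.5).

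Named rows paired with the nearest named row within 10 kb gave 53.8% with the same sign (52.6 to 55.0) and an r of 0.14, each such pair of mutual neighbours counting from both sides. Unnamed rows beyond 10 kb, at a median of 73915 bp from the nearest named row, gave 54.4% (52.4 to 56.4) and an r of 0.14. Both of these sets were limited to neighbours at 1 FPKM or more, a limit at which the unnamed rows beside genes had 58.4% (56.0 to 60.6) and an r of 0.37. Where the unnamed row reached 1 FPKM in both groups, its share fell to 53.7% (51.0 to 56.3). The 2 other sets were not limited to 1 FPKM in both groups, so that value cannot be set against theirs. Where both rows of a pair were past 1.5-fold, they went in opposite directions in 91 of 381 pairs (23.9%, 19.9 to 28.4) of unnamed rows beside genes. With neighbours at 1 FPKM or more they did so in 74 of 325 pairs (22.8%, 18.5 to 27.6). At that limit the share was 36.1% (32.8 to 39.6) for pairs of named rows and 36.6% (32.7 to 40.7) for unnamed rows beyond 10 kb. These shares were not tested against each other. Where the unnamed row beside a gene reached 1 FPKM in both groups, its share was 34.6% (27.6 to 42.3), a limit again not applied to the other sets. Of 459 unnamed rows more than 1.5-fold higher in SNL, 143 had a neighbour that was also higher by that measure, 52 one that was lower and 264 one within 1.5-fold. Of 431 lower rows, 147 had a lower neighbour, 39 a higher one and 245 one within 1.5-fold. So 57.5% of the higher rows and 56.8% of the lower ones had a neighbour within the limit.

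For the shRNA vectors the same sign held in 1157 of 2053 pairs (56.4%, 54.2 to 58.5), with an r of 0.11 and a rho of 0.17. Rows in the neighbour's locus had an r of 0.28 (498 pairs), those under 1 kb away 0.13 (604 pairs) those at 1 to 5 kb 0.01 (590 pairs) and those at 5 to 10 kb 0.11 (360 pairs). Of 168 unnamed rows more than 1.5-fold lower in the group labelled Neat1 shRNA, 28 had a neighbour lower by that measure and none a higher one. Of 143 higher rows, 4 had a higher neighbour and 12 a lower one. With neighbours at 1 FPKM or more, 3 of 132 higher rows had a higher neighbour and 6 a lower one, so 6 of the 12 rested on neighbours under that level. Pairs with both rows past 1.5-fold were in opposite directions in 12 of 44 (27.3%, 16.3 to 41.8), and in 6 of 35 (17.1%, 8.10 to 32.7) with neighbours at 1 FPKM or more. At that same neighbour level they were so in 9.26% (4.02 to 19.9) of 54 pairs of named rows and 18.4% (9.22 to 33.4) of 38 pairs with unnamed rows beyond 10 kb. For rows outside named loci with 2 named rows within 10 kb, the sign matched the nearest in 58.5% (53.8 to 63.0) and the second in 50.2% (45.6 to 54.9) of 436 pairs. The corresponding shares after SNL were 56.7% of 374 and 54.3% of 376 pairs.

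**Figure D3:**
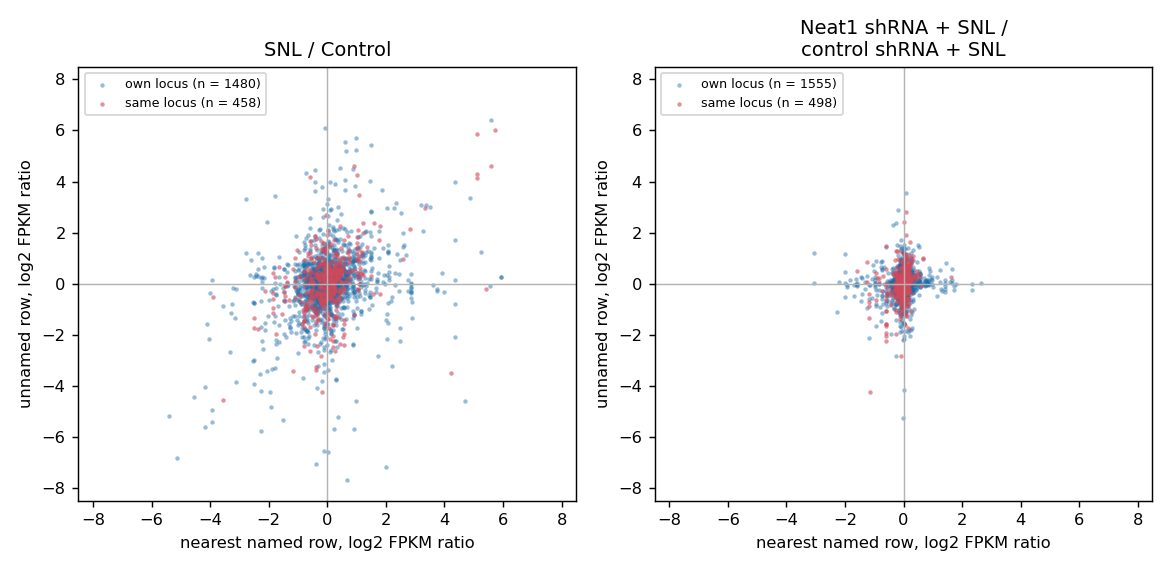
Log2 FPKM ratio of each unnamed row (y) against that of its nearest named row (x), SNL over Control (left) and the group labelled Neat1 shRNA over control shRNA (right), red for rows with the neighbour's own locus and blue for the others. The cloud is wide in both panels, with Pearson's r of 0.32 at left and 0.11 at right.

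**Figure D4:**
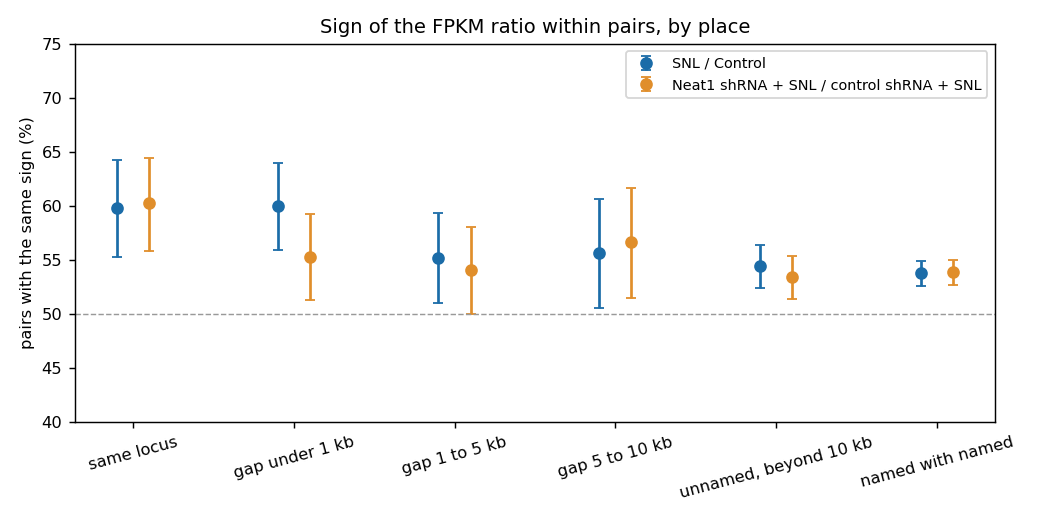
Share of pairs in which both rows had the same sign of the log2 ratio, by the place of the unnamed row, with Wilson 95% intervals (SNL over Control in blue, the group labelled Neat1 shRNA over control shRNA in orange). Pairs of unnamed rows beyond 10 kb and of named rows stand at the right for comparison, and the dashed line marks 50%.

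Rows that parted from their neighbours are described by the difference, which also chose them. Atf3, an injury-induced transcription factor, had 269 FPKM in SNL and 13.1 FPKM in Control, while the unnamed row 5872 bp away (chromosome 13, 114474281 to 114521467) had 1.73 FPKM in SNL and 7.35 FPKM in Control. Atp2b4, a plasma membrane calcium pump gene, had 54.8 FPKM in SNL and 13.7 FPKM in Control, and the row 6250 bp from it 13.1 FPKM in SNL and 34.8 FPKM in Control. Fcgr3a, an Fc receptor gene of macrophages and natural killer cells, had 6.35 FPKM in SNL and 0.858 FPKM in Control, and a row of 233 bp beside it 4.52 FPKM in SNL and 11.6 FPKM in Control. The nearest row of Zdhhc18, a palmitoyltransferase gene, went the other way, with 4.50 FPKM in SNL and 23.1 FPKM in Control. The unnamed row 1205 bp from it had 3.38 FPKM in SNL and 1.47 FPKM in Control. The second nearest named row was also Zdhhc18, and its value is not given. There were 45 such pairs past 1.5-fold in opposite directions with both rows at 2 FPKM or more after SNL, and 2 in the shRNA table.

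Other rows were within 1.5-fold, or nearly so, beside a gene whose FPKM differed by far more. Hpd, which encodes a tyrosine-degrading dioxygenase, had 12.0 FPKM in SNL and 0.198 FPKM in Control. The 2 unnamed rows beside it had 5.11 and 5.90 FPKM in SNL, against 4.29 and 4.90 FPKM in Control. B3gat2, a glucuronyltransferase gene, had 0.526 FPKM in SNL and 7.96 FPKM in Control, and the row 122 bp away 47.2 FPKM in SNL and 43.0 FPKM in Control. Kcnc1, a Kv3 potassium channel gene, had 1.18 FPKM in SNL and 11.1 FPKM in Control, beside a row with 8.68 FPKM in SNL and 9.85 FPKM in Control. In a further pair the values were apart in direction. The nearest row of Avil, the gene of the sensory neuron protein advillin, had 64.8 FPKM in SNL and 397 FPKM in Control. The unnamed row 771 bp away had 39.8 FPKM in SNL and 21.2 FPKM in Control. Here, and for Basp1, the second nearest named row carried the same symbol, and its value is not given. In the reverse case, the row 161 bp from Basp1, a growth cone protein gene, had 5.21 FPKM in SNL and 0.143 FPKM in Control, with Basp1 at 89.6 FPKM in SNL and 57.9 FPKM in Control. Likewise the row 2588 bp from Rtn4ip1, a mitochondrial oxidoreductase gene, had 7.31 FPKM in SNL and 0.317 FPKM in Control, with Rtn4ip1 at 9.39 FPKM in SNL and 6.94 FPKM in Control. The row 753 bp from the joint row of Mir3593 and Ralgapa1 had 0.0523 FPKM in SNL and 6.98 FPKM in Control.

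**Figure D5:**
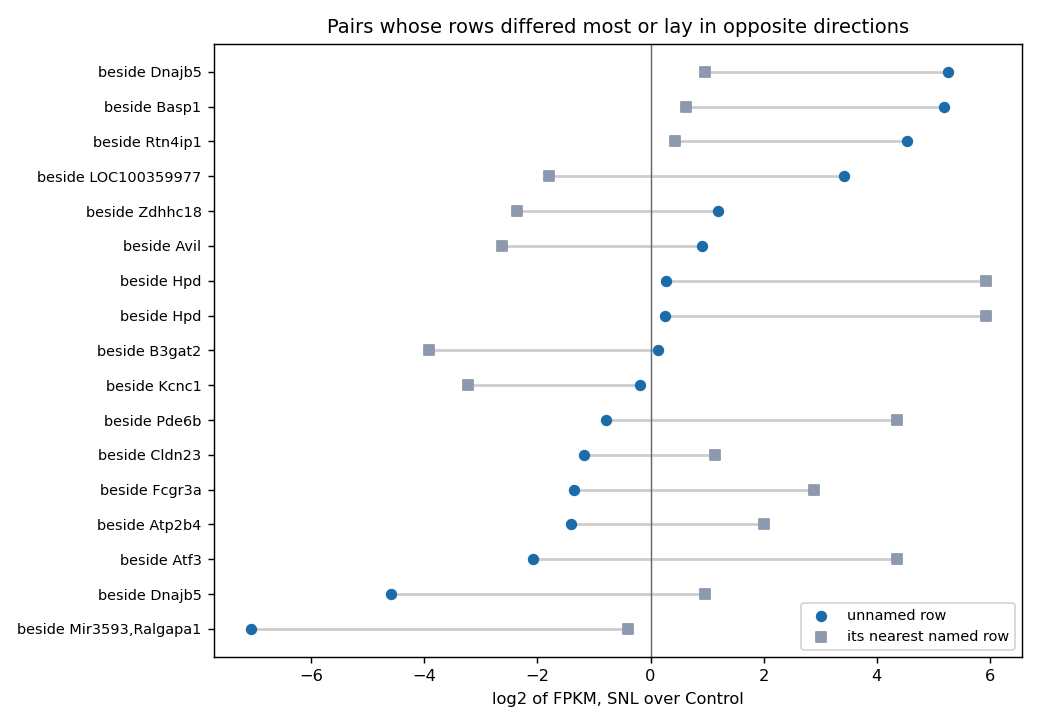
Log2 of FPKM in SNL over Control for the unnamed row (blue circle) and its nearest named row (grey square) of the pairs chosen for the largest difference or for opposite directions, 1 line per pair. The unnamed row beside Atf3 is at -2.09 and Atf3 at 4.36, and the unnamed row beside Avil is at 0.91 and the nearest row of Avil at -2.62. For Avil, Zdhhc18 and Basp1 a second named row with the same symbol is not drawn.

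Neighbours were next grouped by gene lists, with counts read against the 20.6% and 19.0% of all rows. Of the 40 rows beside listed genes that were past 1.5-fold after SNL, 28 had under 1 FPKM in the lower group. Such rows entered only through the group where they were high, which fixed their direction, so these counts describe the rows and support no direction. Beside injury and regeneration genes, 7 of 9 unnamed rows were higher in SNL and 2 lower, and all 7 had a neighbour that was higher too. Of the 7, 4 were the rows of 1 locus beside Jun, set against the same gene, so they are not separate cases. The row 290 bp from Anxa1, which encodes annexin A1, had 2.12 FPKM in SNL and 0.130 FPKM in Control. The row 187 bp from Sox11, a transcription factor gene of axon regeneration, had 1.60 FPKM in SNL and 0.382 FPKM in Control, and a row in the locus of Cacna2d1, the gene of a calcium channel subunit bound by gabapentinoids, 3.01 FPKM in SNL and 0.673 FPKM in Control. The 1 row beside a neuropeptide gene, Adcyap1, which encodes PACAP, had 5.27 FPKM in SNL and 0.683 FPKM in Control, with the gene at 121 FPKM in SNL and 29.1 FPKM in Control.

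Beside nociceptor and touch receptor genes, 2 of 4 rows were lower in SNL and none higher, and both had entered through Control only. The row 799 bp from Mrgprx3, an itch receptor family gene, had 0.0256 FPKM in SNL and 1.08 FPKM in Control, and the row beside Oprd1, the delta opioid receptor gene, 0.0645 FPKM in SNL and 1.20 FPKM in Control. Among the 6 rows beside voltage-gated channel genes, 3 were lower in SNL and 2 higher. The row 91 bp from Kcng3, a silent potassium channel subunit gene, had 0.0991 FPKM in SNL and 2.14 FPKM in Control. The row in the locus of Scn2b had 1.10 FPKM in SNL and 0.475 FPKM in Control, and reached 1 FPKM in SNL only. Scn2b itself was within 1.5-fold, at a log2 ratio of -0.58. Of the 2 rows beside Isl2, a homeobox gene of sensory neurons, one had 0.0746 FPKM in SNL and 1.06 FPKM in Control, and the other 5.50 FPKM in SNL and 6.31 FPKM in Control. Sensory neuron markers were lower in SNL, and their part in these values was not tested.

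Beside immune genes the rows were split. In the locus of Xcl1, the gene of a T and natural killer cell chemokine, 5 unnamed rows had 1.06 to 2.45 FPKM in SNL. In Control 2 of them were listed at 0 and the other 3 lay between 0.0292 and 0.0942 FPKM. Beside Itgam, an integrin gene of macrophages, the row had 2.12 FPKM in SNL and 0.249 FPKM in Control. The 2 rows beside Il2rb, the interleukin-2 receptor beta gene, had 1.66 and 2.28 FPKM in SNL, against 0.106 and 0.697 FPKM in Control. By contrast, the rows beside Csf1r, Cd8a and Lck were level, with 9.52, 14.95 and 2.40 FPKM in SNL, against 9.77, 16.9 and 2.44 FPKM in Control, although Csf1r itself, the receptor of a macrophage growth factor, was at 33.7 FPKM in SNL and 6.79 FPKM in Control. The row 5589 bp from Tnfrsf1a, the gene of a receptor of tumour necrosis factor, had 0.0197 FPKM in SNL and 1.002 FPKM in Control, with Tnfrsf1a at 45.4 FPKM in SNL and 23.97 FPKM in Control. Macrophage and T cell markers were higher in SNL, and their part in these rows was not tested.

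Beside matrix genes, 3 of 6 rows were higher in SNL and 1 lower, each of which had entered only through the group where it was high, in a table where fibroblast markers were higher in SNL as well. The rows beside Col1a1, Dcn and Fbn1, which encode a collagen chain, decorin and fibrillin-1, had 1.79, 1.70 and 1.62 FPKM in SNL, against 0.817, 0.778 and 0.448 FPKM in Control. The row beside Fn1, the fibronectin gene, had 0.364 FPKM in SNL and 1.06 FPKM in Control. Among rows beside myelin and Schwann cell genes, that 633 bp from Sox10, a glial transcription factor gene, had 28.6 FPKM in SNL and 12.0 FPKM in Control. After SNL, 0 unnamed rows had a nearest row from the lists of antigen presentation, satellite glia or reference genes.

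For the shRNA vectors the counts were read against the 3.10% and 5.69% of all rows, and 4 of 55 rows beside listed genes were more than 1.5-fold higher (7.27%) and 6 lower (10.9%). Of the 10 rows past 1.5-fold, 4 had under 1 FPKM in the lower group. Those rows entered only through the group where they were high, which fixed their direction, so these counts support no direction. Beside cell cycle genes both rows were lower. The row beside Ccnb1, the cyclin B1 gene, had 1.44 FPKM in the group labelled Neat1 shRNA and 2.91 FPKM with control shRNA. The row beside Mcm4, a replication helicase gene, had 0.541 FPKM in the group labelled Neat1 shRNA and 1.11 FPKM with control shRNA. The latter reached 1 FPKM with control shRNA only. Beside macrophage genes, 2 of 3 rows were lower, those of Itgam (2.09 FPKM in the group labelled Neat1 shRNA and 4.05 FPKM with control shRNA) and Spi1 (1.13 FPKM in the group labelled Neat1 shRNA and 1.79 FPKM with control shRNA). The row in the locus of Scn2b had 2.31 FPKM in the group labelled Neat1 shRNA and 4.87 FPKM with control shRNA. Among lymphocyte genes, each of the 5 neighbours had a lower value with Neat1 shRNA by label, but of the 6 unnamed rows 1 was lower and 1 higher. The lower one, beside Il2rb, reached 1 FPKM with control shRNA only. Zap70 and Cd8a, genes of T cell signalling, had 1.32 and 3.08 FPKM in the group labelled Neat1 shRNA, against 5.10 and 11.9 FPKM with control shRNA. Their unnamed neighbours had 14.6 and 14.8 FPKM in the group labelled Neat1 shRNA, against 15.9 and 15.3 FPKM with control shRNA.

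At 10 FPKM or more, 5 rows of the shRNA comparison were more than 1.5-fold lower. The list of antigen presentation genes had 0 unnamed rows in this comparison, as RT1-CE10 is not on it and rows with several symbols were matched to no list. A row in the locus of RT1-CE10 on chromosome 20 (131270 to 176640) had 12.7 FPKM in the group labelled Neat1 shRNA and 39.4 FPKM with control shRNA, and RT1-CE10 29.3 FPKM in the group labelled Neat1 shRNA and 44.4 FPKM with control shRNA. Rows of the RT1 genes resemble each other in sequence, so the split of reads among them is uncertain. The other 3 unnamed rows of this locus had 1.49, 1.39 and 1.33 FPKM in the group labelled Neat1 shRNA, against 6.21, 0.499 and 0.880 FPKM with control shRNA, in both directions. A row in the joint locus of RT1-A1 and RT1-A2 had 7.16 FPKM in the group labelled Neat1 shRNA and 13.0 FPKM with control shRNA. In the locus of Gbp4, a guanylate-binding protein gene, the row had 6.25 FPKM in the group labelled Neat1 shRNA and 11.1 FPKM with control shRNA. A row 6540 bp from Skp1, a ubiquitin ligase subunit gene, had 5.29 FPKM in the group labelled Neat1 shRNA and 10.2 FPKM with control shRNA, and the row beside Lin28a 108 FPKM in the group labelled Neat1 shRNA and 173 FPKM with control shRNA. T cell markers were lower in the same group, and their part in these rows was not tested.

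At the other end, the row 22 bp from Grtp1 had 33.5 FPKM in the group labelled Neat1 shRNA and 17.1 FPKM with control shRNA, a log2 ratio of 0.97, while Grtp1 was at 2.72 FPKM in the group labelled Neat1 shRNA and 2.97 FPKM with control shRNA. In the locus of Prss12, which encodes the brain protease neurotrypsin, the unnamed row had 54.0 FPKM in the group labelled Neat1 shRNA and 30.0 FPKM with control shRNA, and Prss12 21.5 FPKM in the group labelled Neat1 shRNA and 50.7 FPKM with control shRNA. Rows of 1 locus ran against each other there. The next highest ratios were within 1.5-fold, such as that of the row 6124 bp from Psmb4, a proteasome subunit gene, with 74.6 FPKM in the group labelled Neat1 shRNA and 51.9 FPKM with control shRNA.

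Loci with several unnamed rows allowed such rows to be set against each other. After SNL, 184 loci held 2 or more with a ratio, 516 rows in all. In 74 of these loci all rows lay within 1.5-fold of each other, and 50 loci held 2 or more rows past 1.5-fold in 1 direction and none in the other. In 8 loci (4.35%) rows were past 1.5-fold in both directions, among them the locus beside Dnajb5 and that of Mir384. For the shRNA vectors, 6 of 259 such loci (2.32%) held both directions, including those of RT1-CE10 and Csad, and 161 lay within 1.5-fold.

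Rows of the tables were matched by position, where loci overlapped by at least 50% of both lengths. This paired 1279 rows, 62.3% of those of the SNL table and 59.7% of those of the shRNA table. The tables share no library, but were assembled and scaled separately, so only ratios within a table were set side by side. Of 301 matched rows more than 1.5-fold higher in SNL, 31 (10.3%) were more than 1.5-fold lower in the group labelled Neat1 shRNA and 14 (4.65%) higher. Of 188 lower in SNL, 15 (7.98%) were higher and 9 (4.79%) lower in the group labelled Neat1 shRNA. Of 788 within 1.5-fold after SNL, 22 (2.79%) were lower and 26 (3.30%) higher. Across 1277 rows with both ratios Pearson's r was -0.19 and Spearman's rho -0.21. Restricted to loci with 1 such row in each table, the counts were 19 lower and 4 higher of 173 rows higher in SNL, and 10 higher and 5 lower of 138 rows lower in SNL. Most of the 19 were under 1 FPKM in Control, and some of the 10 were so in the lower group of a comparison. Such rows entered that comparison only through the group where they were high, which fixed their direction in it. These counts therefore support no direction.

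These rows with opposite ratios in the tables were mostly low. The row beside Lin28a was the highest, at 224 FPKM in SNL and 16.1 FPKM in Control, and at 108 FPKM in the group labelled Neat1 shRNA and 173 FPKM with control shRNA. The row beside Atg7, an autophagy gene, had 3.71 FPKM in SNL and 0.498 FPKM in Control, and 0.0587 FPKM in the group labelled Neat1 shRNA and 2.22 FPKM with control shRNA. The row beside Itga4, an integrin gene of leukocytes, had 2.82 FPKM in SNL and 0.954 FPKM in Control, and 3.04 FPKM in the group labelled Neat1 shRNA and 5.22 FPKM with control shRNA. For the row beside Igtp, an interferon-induced GTPase gene, these were 1.08 FPKM in SNL and 0.477 FPKM in Control, and 2.005 FPKM in the group labelled Neat1 shRNA and 3.80 FPKM with control shRNA. The row in the locus of Gbp4 had 5.38 FPKM in SNL and 2.0003 FPKM in Control. In the reverse direction, the row beside Cd48, a gene of a leukocyte surface protein, had 1.21 FPKM in SNL and 1.91 FPKM in Control, and 1.68 FPKM in the group labelled Neat1 shRNA and 0.730 FPKM with control shRNA. The row beside Slc15a4, a lysosomal peptide and histidine transporter gene, had 1.88 FPKM in SNL and 5.08 FPKM in Control, and 2.16 FPKM in the group labelled Neat1 shRNA and 1.39 FPKM with control shRNA.

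The limits of the rule cut through close values. In the SNL table the 2 rows just inside the distance limit lay 9989 and 9986 bp from a named row, with log2 ratios of -0.18 and -0.26, and the 2 just outside lay at 10023 and 10127 bp, with 0.80 and -1.50. The lowest levels let in were 1.0005 and 1.0011 FPKM in the higher group, and the highest kept out 0.99974 and 0.99938 FPKM. The shortest loci let in were 204 and 205 bp, and the longest kept out 194 and 193 bp. For the shRNA vectors the distances were 9973 and 9953 bp inside and 10022 bp outside, where 2 rows had 1 locus.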

How the data were processed

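Polyadenylated, stranded libraries of whole L5 DRG, 3 per group, were sequenced as paired 75 bp reads. The authors mapped the reads to the rat build rn5, guided by RefSeq, and assembled transcripts with Cufflinks, as the methods and the submitters' processing notes state. The deposited tables, 1 per comparison, hold FPKM calculated by the authors, with 1 pooled value per group, beside columns of the authors' comparisons (log2 fold change, test statistic, p-value, q-value, status and a significance flag), which were not used. Depth per library is unknown from these tables and no error between animals could be computed.

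Ratios of FPKM were taken without a pseudocount, SNL over Control and the group labelled Neat1 shRNA over control shRNA. Rows at 0 in a group got no ratio. The nearest named row was found by the distance between locus edges, with ties settled by overlap and then by midpoints. A ratio past 1.5-fold was counted as higher or lower, and shares have Wilson 95% intervals for counting error.

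The members, gene lists and naming rule were chosen with earlier results of these data known. Named were, per table, the 8 rows highest in FPKM, the 8 highest and 8 lowest ratios at 10 FPKM or more (1 per locus), the 6 largest differences from the neighbour each way at 5 FPKM or more, up to 6 pairs in opposite directions at 2 FPKM or more, the study's candidate locations, up to 3 rows per gene list, and 2 rows at each side of each limit. Of these a selection is printed, and some items are not reported here. Rows beside miRNAs, rows with opposite ratios in the tables, list rows past that number and loci with both directions were added after their values were seen. Per table, 25 rows whose symbols had been turned into dates are not named. Members' own sequences and strand were not analysed here. Pairing was tested on simulated data, and the matching across the comparisons was not. Computations, with the intervals, used Python 3.11.15 with pandas 2.3.3 and numpy 2.4.6, and plots matplotlib 3.10.9. Alternatives changed the distance, level, length and fold limits, the pseudocount, the centring, the neighbour and the overlap.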

Additional observations from a re-analysis of the deposited data

How the results depend on the processing

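No paired analysis was possible because each group has 1 pooled value, and leaving out replicates was not possible for the same reason. With the distance limit at 1 kb, after SNL 60.0% of pairs had the same sign, 16.2% of those past 1.5-fold were opposite and 54.1% lay within 1.5-fold, and with the shRNA vectors 8.20% of rows were higher. At a minimum of 5 FPKM, after SNL 16.1% were higher, 19.4% lower, 31.2% of pairs opposite and 53.3% within 1.5-fold, and with the shRNA vectors 1.13% were higher, 2.82% lower and 88.7% of pairs within 1.5-fold. At a minimum of 0.1 FPKM, after SNL 29.0% were higher, 26.6% lower, 62.7% of pairs of the same sign, 19.1% opposite and 46.0% within 1.5-fold, and with the shRNA vectors 14.2% were higher, 13.8% lower and 70.3% of pairs within 1.5-fold. With 1 FPKM required in both groups, after SNL 16.4% were higher, 14.97% lower, 53.7% of pairs of the same sign, 34.6% opposite and 55.3% within 1.5-fold, and with the shRNA vectors 3.37% were higher, 4.15% lower and 87.2% of pairs within 1.5-fold. At a fold limit of 2, after SNL 13.5% were higher, 13.4% lower and 16.5% of pairs opposite, and with the shRNA vectors 2.20% were higher and 3.78% lower. With a pseudocount of 1, after SNL 14.95% were higher, 15.6% lower, 19.0% of pairs opposite and 62.0% within 1.5-fold, and with the shRNA vectors 2.01% were higher, 3.64% lower, 12.5% of pairs opposite (1 of 8) and 92.5% within 1.5-fold. With a pseudocount of 0.1, 51.3% of pairs lay within 1.5-fold after SNL and 83.8% with the shRNA vectors. For the shRNA vectors alone, the share higher was 5.83% at a stricter minimum length and 5.70% outside named loci. With 1 row per locus 5.91% were higher, 6.93% lower and 82.6% of pairs within 1.5-fold, and with neighbours at 1 FPKM or more 83.4% of pairs were. The share of rows matched across the tables was 54.7% at an overlap of 80% and 65.8% at 20%. It was 54.8% for loci with 1 such row, an alternative chosen after seeing the data, as was taking the highest named row of a shared locus. The other 86 alternative values stayed within the main value's counting interval. The cause of each move was not tested. The shares past 1.5-fold were smaller at stricter level limits. FPKM carries no read number here, so the counting error of single rows is unknown.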
